A study of Eonycteris spelaea and Mus musculus with 51 samples.

Results

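Mouse genes that carry only a number after the letters Gm are placeholder entries: predicted transcripts to which the mouse gene catalogue has given no functional name. The 4392 such rows described here are those of the mouse count table whose symbol is Gm followed by digits only and whose reads sum to at least 50 over the 24 mouse libraries. They were taken from 13293 Gm-numbered rows in a table of 40840 rows, and the other 8901 lay under that sum, 3854 of them with no read in any library. The members were thus chosen by their summed counts over all libraries, so their presence in these tissues is not a result. At the threshold, 21 rows held exactly 50 reads (Gm15217 among them) and 27 held 49 (Gm12724 among them), and 1419 members held 500 or more.

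The study measured RNA in lung, skeletal muscle and blood of mice, beside bats that were not analysed here, to follow the response of whole animals to heat. Control mice were sampled at baseline, before treatment. Heat mice underwent heat shock in vivo for 1 h and were sampled at its end. Recovery mice had the same 1 h treatment and were then left for 4 h. Each tissue and condition had 3 libraries, apart from blood with 2, and the labels name no strain, age, sex or animal number for any group. No mice without heat shock were sampled at the later times, so heat and recovery cannot be told apart from handling or elapsed time. Nothing in the labels says that replicates are separate animals for each tissue, so p-values measure the spread between these libraries.

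Gm-numbered models cover several kinds of transcript: long non-coding RNAs, which are not translated, small RNAs, pseudogenes, which are copies of working genes, and a few uncharacterised coding genes. Heat activates the transcription factor HSF1, which drives genes of chaperones, the proteins that keep other proteins folded. In stressed cells, transcription is also known to run past the ends of genes and to arise from the strand opposite to a gene, and such RNA is often catalogued as an unnamed transcript.

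By symbol, 1783 of the members were found in the GENCODE M21 annotation, which has 1106 of them as long non-coding RNA, 250 as small RNA, 204 as protein coding and 184 as pseudogenes, and gives 39 no settled type. The other 2609 had no match there and are described by the rows next to them in the deposited table, whose rows follow the genome. Of matched consecutive rows, 99.9% lay on the same chromosome and 98.5% in ascending order. That annotation is on an older mouse build than the one in the submitters' processing notes, so it was used for gene type, neighbours and strand, and no coordinates are given.

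For 3 non-coding members the transcript in GENCODE M21 is shown, because each lies beside or within a gene with a known part in these tissues: Gm20005 near the chaperone gene Hsph1, Gm22146 within Fkbp5, a target of stress hormones, and Gm30211 across the joining and constant segments of the antibody kappa light chain. Sequences run 5′ to 3′, whole for the first pair (299 and 288 bases) and as the last 300 of 3078 bases for Gm30211. Capitals mark the hexamer AATAAA, the usual signal for cutting and adding a poly(A) tail. It ended 17 bases before the 3′ end of Gm20005 and 13 bases before that of Gm30211, and these letters are not in Gm22146. Searched on the transcript strand, 29.9% of 9101 lincRNA transcripts in that annotation hold AATAAA in their last 40 bases.
Gm20005: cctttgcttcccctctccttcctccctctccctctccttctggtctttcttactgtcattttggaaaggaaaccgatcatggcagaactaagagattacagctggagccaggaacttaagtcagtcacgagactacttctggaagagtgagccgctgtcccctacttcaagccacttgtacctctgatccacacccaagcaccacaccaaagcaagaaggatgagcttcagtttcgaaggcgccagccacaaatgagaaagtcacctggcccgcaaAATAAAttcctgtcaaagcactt
Gm22146: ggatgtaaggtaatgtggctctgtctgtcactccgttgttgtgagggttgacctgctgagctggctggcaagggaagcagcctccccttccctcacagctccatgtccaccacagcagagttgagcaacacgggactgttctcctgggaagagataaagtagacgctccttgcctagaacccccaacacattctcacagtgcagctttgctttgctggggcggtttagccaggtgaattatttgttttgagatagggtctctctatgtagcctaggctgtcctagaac
Gm30211: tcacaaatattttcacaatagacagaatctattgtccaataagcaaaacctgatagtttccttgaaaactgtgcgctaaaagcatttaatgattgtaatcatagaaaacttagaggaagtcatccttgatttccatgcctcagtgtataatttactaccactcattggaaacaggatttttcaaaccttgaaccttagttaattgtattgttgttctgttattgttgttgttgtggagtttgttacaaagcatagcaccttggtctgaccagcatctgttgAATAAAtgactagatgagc

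Depth was enough to test 3412 of the 4392 members in at least 1 tissue, and fewer in any single tissue. Total counts ran from 17.1 M (M, 1000000 counts) to 27.4 M in lung, 26.3 M to 37.2 M in muscle and 32.5 M to 54.5 M in blood. Members took 1.37 to 1.58% of counts in lung, 0.516 to 0.765% in muscle and 0.386 to 0.641% in blood. In lung the share was 1.51 to 1.58% in control and 1.37 to 1.46% in heat libraries, without overlap. Of the members, 2667 passed the filter on low counts in lung, 2002 in muscle and 1806 in blood, with 1123 in every tissue, 817 in 2 tissues, 1472 in 1 tissue and 980 in none. The summed level of lung epithelium markers was at least 14850 counts per 1000000 (CPM) in lung and at most 5.28 CPM elsewhere, and that of skeletal muscle markers was at least 172520 CPM in muscle, 592 to 3575 CPM in lung, with the highest value in 1 control library, and 4.10 to 8.34 CPM in blood. CPM here are counts scaled by library size and TMM factors, with no correction for length. Where rows are ranked or grouped by CPM, that is by their reads, and a long transcript counts for more than a short one at the same level.

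Whether unnamed transcripts rise more than named genes with heat was asked first in lung. They did not as a group: 79 of 2667 tested members rose (2.96%) and 81 fell (3.04%), while 489 of 15267 rows with ordinary gene symbols rose (3.20%) and 403 fell (2.64%). A row is said to rise or fall at an adjusted p under 0.05 in the quasi-likelihood test of edgeR, with p-values adjusted by the Benjamini-Hochberg method over all 19438 rows tested, of which 3.14% rose and 2.72% fell. The members' share is near that background in both directions. Their median log2 change was -0.06, with quartiles at -0.47 and 0.34, against a median of -0.00 and quartiles at -0.18 and 0.15 for named rows. By level, the medians of members and named rows were -0.08 and -0.11 under 1 CPM, and -0.04 and -0.10 from 1 to 5 CPM. From 5 to 20 CPM they were -0.09 and -0.07, and at 20 CPM or more -0.10 and 0.04. Over all levels together, 7.16% of members had a log2 change above 1 and 7.42% one below -1, against 2.33 and 1.45% of named rows. Members also had fewer reads, with a median of 1.30 CPM against 21.3 CPM. Under 1 CPM the shares were closer, at 8.45 and 11% of members and 7.68 and 8.90% of named rows, and from 5 to 20 CPM they were 4.05 and 3.18% against 1.40 and 0.74%. Without heat library 2 the counts were 153 rose and 137 fell, without heat library 1 they were 29 and 12, without control library 1 they were 13 and 7, and without control library 3 they were 7 and 5. Leaving out control library 2 gave 46 and 35, recovery library 1 gave 48 and 49, recovery library 2 gave 47 and 37, and recovery library 3 gave 49 that rose. The shares of all rows in these fits with 1 library left out are not given here.

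At like levels of expression, a larger share of members than of named rows passed the test, upward and downward. Among rows with a mean under 1 CPM in lung, 1.35% of 1112 members and 0.92% of 977 named rows rose. From 1 to 5 CPM these shares were 3.06% of 1077 members and 1.87% of 2354 named rows. From 5 to 20 CPM they were 6.65% of 346 members (23 rows) and 1.89% of 4075 named rows. At 20 CPM or more they were 6.06% of 132 members (8 rows) and 4.57% of 7861 named rows. The shares that fell were 1.35 against 0.51%, 2.69 against 1.53%, 6.36 against 3.83% and 11.4 against 2.62% in the same order. No test was made of these differences. From 5 to 20 CPM the members' share that rose was the higher one in each of 16 settings, the reported one included. Under 1 CPM it was the higher one in 14 of 16, not so without control library 3 or heat library 2. From 1 to 5 CPM it was so in 15 of 16, not with the replicate number as a block. At 20 CPM or more it was so in 13 of 16, not without control library 1, control library 3 or heat library 2.

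**Figure D1:**
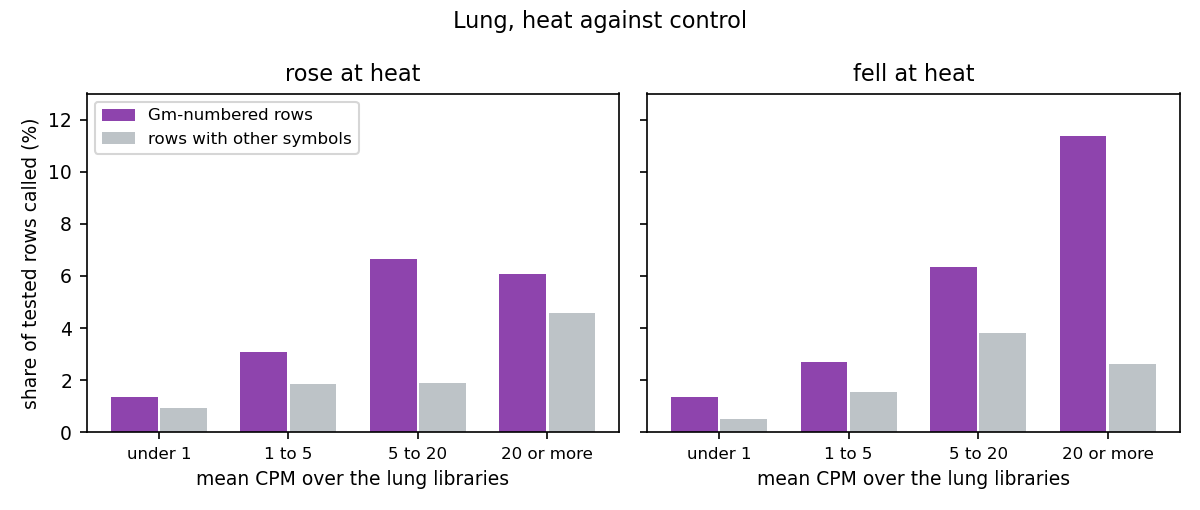
Share of tested rows that rose (left) or fell (right) in lung at heat, in percent, by mean level in CPM over the lung libraries, for Gm-numbered rows and rows with other gene symbols. The members' bar is the higher one in each level class, with 6.65 against 1.89% rising from 5 to 20 CPM.

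Library by library, the members' median lay below the control mean in each heat library of lung and muscle. In lung it was -0.06, -0.03 and -0.11 on the log2 scale in heat libraries 1 to 3. Lung control libraries had 0.05, -0.01 and -0.01, and recovery libraries 0.13, 0.04 and -0.01. In muscle heat libraries it was -0.10, -0.11 and -0.16, where named rows had -0.05, -0.05 and -0.02. These medians pool rows of all levels. Muscle control libraries had 0.05, 0.01 and -0.01, and recovery libraries 0.07, -0.06 and -0.12. Muscle recovery library 3 thus lay below heat libraries 1 and 2. In blood the heat libraries had 0.05 and -0.06, on either side of the control mean, and the 2 control libraries 0.06 and -0.06.

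**Figure D2:**
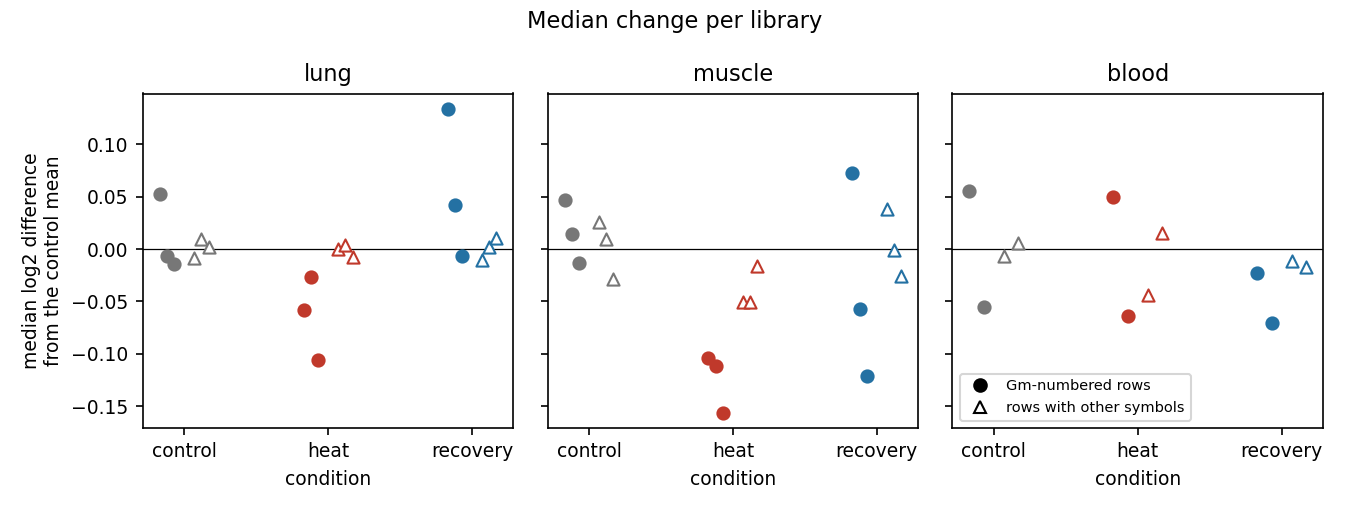
Median log2 difference from the control mean over tested rows, one point per library, by condition, in lung, muscle and blood (filled circles, Gm-numbered rows; open triangles, rows with other symbols). In lung and muscle all 6 heat libraries have a members' median below 0, and in blood they lie on both sides.

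Of the kinds of transcript in lung at heat, 19 of 664 tested long non-coding RNAs rose (2.86%) and 23 fell (3.46%). Of 1556 members with no match, 53 rose and 53 fell (3.41% each). Both kinds were near the share of all rows tested in lung, of which 3.14% rose and 2.72% fell. Of 137 protein-coding members, 3 rose (Gm8251, Gm35339 and Gm6377) and 3 fell (Gm19426, Gm12185 and Gm12216). Of 156 small RNAs 2 rose (Gm22146 and Gm25640) and of 127 pseudogenes 1 rose (Gm5176), and none of either kind fell in the edgeR test, where 3 small RNAs and 14 pseudogenes had an unadjusted p under 0.05 downward. These names were chosen after their values were seen. Members whose transcript is a near copy of another row's transcript, at 90% identity or more over at least 80% of its length, were 225 of the 1783 matched members, and 128 of those are pseudogenes. Their counts are uncertain, since the handling of reads that fit several places is not stated. Of 146 such members tested in lung, 1 rose (Gm25640, log2 0.93) and none fell, with 8 at an unadjusted p under 0.05 downward.

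The member with the largest rise among those of at least 1 CPM in lung was Gm52724, which has no match in the annotation and stands in the table between Rmdn1 and Wwp1, the latter a ubiquitin ligase. Its level in lung was 0.903, 1.68 and 0.965 CPM in control, 11.5, 7.27 and 16.7 CPM at heat, and 0.885, 0.934 and 2.21 CPM at recovery. In muscle it was 0.782, 0.587 and 1.57 CPM in control, 7.54, 7.73 and 11.4 CPM at heat, and 0.796, 2.13 and 2.71 CPM at recovery. Heat libraries lay above every control and recovery library in both tissues, by edgeR log2 changes of 3.33 (SE 0.42, adjusted p = 0.00435 with Benjamini-Hochberg adjustment) and 3.19 (SE 0.51, adjusted p = 0.0485). In blood its level was 0.182 and 0.0854 CPM in control, against 1.09 and 0.857 CPM at heat, without overlap, and it did not pass (log2 2.86, edgeR adjusted p = 0.119 over all rows). Of its neighbours in the table, neither passed in lung: Rmdn1 had a log2 change of -0.23 and Wwp1 of 0.07. In lung Gm52724 passed under each alternative and without each library, with log2 changes of 3.01 to 3.64. In muscle the call was lost in 8 of 15 alternatives: with the replicate number as a block (edgeR adjusted p = 0.0931), and without control library 1 or 2, any 1 of the heat libraries, or recovery library 2 or 3 (adjusted p up to 0.221).

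Gm52670 also rose in lung and in muscle, and stands before Prkaa2, the catalytic subunit of the energy sensor AMPK. Its level in muscle was 4.16, 4.78 and 6.57 CPM in control, 31.7, 21.2 and 34.3 CPM at heat and 2.86, 7.70 and 8.05 CPM at recovery. In lung it was 5.31, 6.87 and 6.11 CPM in control, against 12, 9.93 and 18.8 CPM at heat. Heat and control did not overlap in either tissue, and recovery libraries overlapped control in both. The edgeR log2 changes were 2.49 in muscle (SE 0.39, adjusted p = 0.0485) and 1.14 in lung (SE 0.22, adjusted p = 0.0149), and the difference between them was not called in the joint fit. The lung call was lost without control library 1 or control library 3 (edgeR adjusted p up to 0.073). Prkaa2 itself had log2 changes of 0.55 in muscle and 0.21 in lung and passed in neither. In blood Gm52670 was at 0.0854 CPM or less in every library.

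Members beside chaperone genes were taken up as a group. Overlap and distance within 10 kb could be looked up only for members matched in the annotation. Members with no match were looked for only in the row before or after each gene. Of 12 heat shock genes listed for this purpose, 8 had no member found in these ways: Hspa1a, Hspa1b, Hspa8, Hsp90aa1, Hspb1, Hspe1, Hspd1 and Bag3. Unmatched members further off in the table were not looked for. The remaining genes had 1 member each by the same search. Gm35399, in the row after Hsp90ab1, a cytosolic HSP90 chaperone, was at 1.43, 0.727 and 0.930 CPM in lung control, 6.99, 4.75 and 10.9 CPM at heat and 0.639, 0.654 and 0.933 CPM at recovery. It rose in lung by a log2 change of 2.86 (SE 0.35, edgeR adjusted p = 0.00287), and kept its call under each alternative. Hsp90ab1 rose there by 1.30 (SE 0.18, edgeR adjusted p = 0.0071). Heat libraries of muscle (4.84, 2.94 and 7.06 CPM) and blood (1.96 and 1.19 CPM) also lay above all control and recovery libraries of those tissues, without passing (log2 3.36 and 2.87, edgeR adjusted p = 0.0715 and 0.124).

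Gm6297 overlaps Dnaja1, an HSP40 co-chaperone, on the opposite strand, with 249 of its 2146 exonic bases shared. Its lung level was 3.35, 2.91 and 2.65 CPM in control, 9.60, 6.24 and 29.5 CPM at heat and 2.12, 2.71 and 2.36 CPM at recovery. It rose by 2.34 (SE 0.53, edgeR adjusted p = 0.0408), beside 2.86 for Dnaja1 (SE 0.51, adjusted p = 0.0296), and heat library 3 was the highest and heat library 2 the lowest of the heat group for both. Without heat library 3 its log2 change was 1.42. The call was lost in 10 of 15 alternatives: with no filter, only the groups compared or the replicate number as a block, and without any 1 of the control or recovery libraries or heat library 1 (edgeR adjusted p up to 0.158). In muscle and blood heat and control did not overlap either, with log2 changes of 2.56 and 2.01 (edgeR adjusted p = 0.0582 and 0.214). The library kit keeps the strand, but the strand setting of the counting is not stated, so reads of this pair cannot be told apart.

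Gm20005, printed above, starts 5.23 kb from Hsph1, an HSP110 exchange factor, on the opposite strand, and was singled out after its values were seen. Its level was 0.213, 0.838 and 0.358 CPM in lung control, against 5.30, 1.77 and 27.1 CPM at heat. In muscle it was 0.0939, 0.168 and 0.307 CPM in control, 18, 3.94 and 48.2 CPM at heat, and 1.24, 11.8 and 11.1 CPM at recovery. All heat libraries lay above all control libraries, but heat libraries differed widely from each other, and the edgeR test did not call it in lung (log2 4.61, SE 1.12, adjusted p = 0.0582) or muscle (6.94, SE 1.31, adjusted p = 0.0601). In blood the 2 control libraries held 1 read between them, and the ratio of heat to control was 75.7, with an exact 95% counting interval of 13.2 to 3028. Hsph1 had the same order of heat libraries in lung, at 917, 303 and 2730 CPM, and in muscle, at 418, 207 and 830 CPM. The fourth gene with a member was Dnajb1, an HSP40 whose neighbour in the table is Gm42029. Gm42029 had log2 changes of 0.26 in lung, 1.38 in muscle and -0.57 in blood at heat and passed in none.

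**Figure D3:**
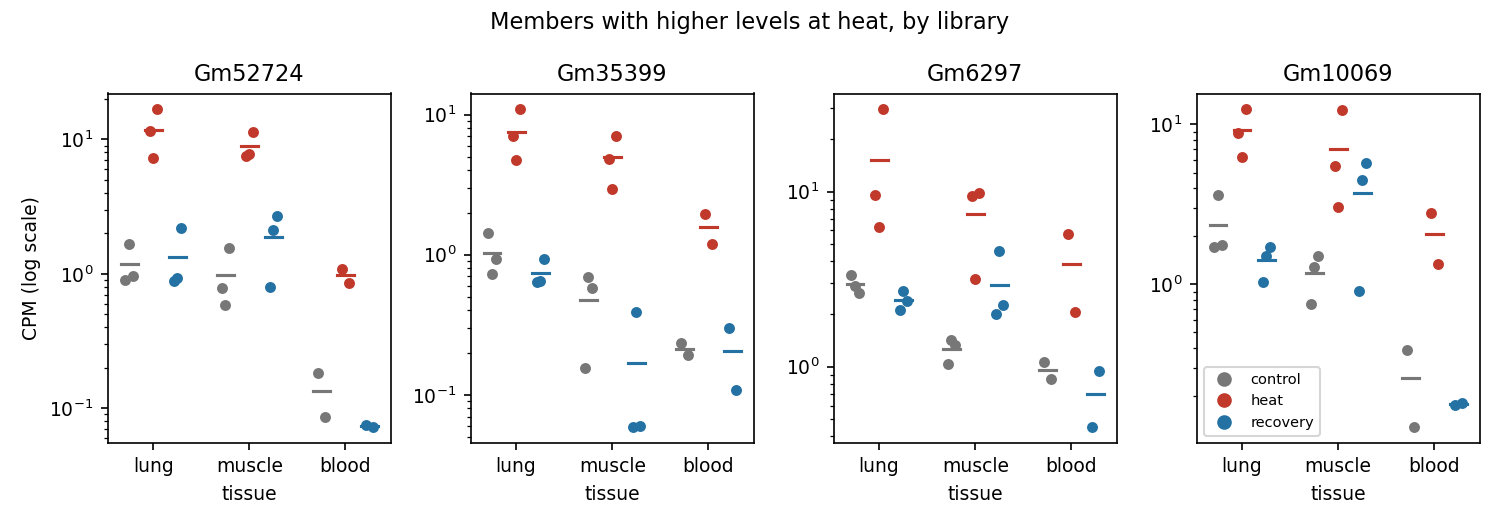
Level in CPM on a log axis of Gm52724, Gm35399, Gm6297 and Gm10069, one point per library with the mean as a line, by tissue and condition. In each of the 3 tissues every heat library lies above the control libraries, as for Gm52724 in lung (7.27 to 16.7 against 0.903 to 1.68 CPM).

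Among the other members with the largest rises in lung, each with at least 1 CPM and no overlap between heat and control, none had a match in the annotation apart from Gm19325. Gm52547, between Nrarp and Tor4a, was at 0.478, 0.559 and 0.393 CPM in control, against 1.56, 1.12 and 8.59 CPM at heat (log2 2.95, edgeR adjusted p = 0.0494). Without heat library 3, its log2 change was 1.499. Gm32345, before Klf13, likewise had its highest value of 7.56 CPM in that library, beside 1.89 and 1.63 CPM in the other heat libraries (log2 2.52, edgeR adjusted p = 0.0448), and without heat library 3 its log2 change was 1.48. Each lost its call in 11 alternatives, heat library 3 left out among them. Gm46206, Gm41704, Gm35380, Gm19325 and Gm35476 had log2 changes of 2.28 to 2.76 (edgeR adjusted p = 0.0141 to 0.0252), with heat library 3 the highest of the heat group for each. Without that library the log2 change was 2.15 for Gm41704, 1.77 for Gm35380 and 1.66 for Gm19325, and Gm35380 lost its call. Each of the 5 also lost it without control library 1 and without control library 3. So did Gm41704, Gm35380 and Gm35476 without control library 2, and Gm46206 and Gm35380 without heat library 1. Recovery libraries of these 7 members were all under the lowest heat library. Heat library 3 of lung also held the highest level of each of the 12 heat shock genes, and the part of that library in these rises was not tested beyond the fits without it.

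Where a member lay with respect to a coding gene was described over the matched members. Only genes typed as protein coding in the annotation counted, which leaves out antibody gene segments. Gm30211 is thus among those that fell with no coding gene within 10 kb, though it overlaps Igkc. In lung at heat, 5 of 41 tested members downstream of a coding gene on the same strand within 10 kb rose (12.2%) and none fell. The median log2 change of the 41 was 0.14. Over all rows tested in lung, 3.14% rose and 2.72% fell. The 5 that rose were Gm19325 behind Slc25a36, Gm34829 behind Elovl5, Gm5176 behind Nap1l1, Gm9465 behind Fcho2 and Gm35339 behind Maf1, named after their values were seen. Their log2 changes were 2.30, 1.27, 1.30, 1.70 and 1.09, and the coding genes before them had 0.07, 0.30, 0.01, -0.05 and 0.25, of which Elovl5 passed (edgeR adjusted p = 0.0369). Of the other classes, 4 of 335 members with no coding gene within 10 kb rose and 7 fell, with a median of -0.25, and 1 of 86 upstream on the opposite strand rose and 4 fell, with a median of -0.32. Of 296 members that share exonic bases with a coding gene, 11 rose and 4 fell, and of 292 within or across one without a shared base, 4 rose and 8 fell. Of 61 at other positions within 10 kb, 1 rose and 5 fell (8.20%). The differences between these classes were not tested, and in muscle the downstream members' median was -0.26 with none called by edgeR.

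The coding gene nearest to a member was set beside it where one lay within 10 kb. Of the 22 members that rose in lung with such a tested neighbour, 16 had a neighbour with a positive log2 change, and 5 a neighbour that rose. Of the 18 that fell, 13 had a neighbour with a negative one, of which edgeR called none lower, and the neighbours' median was -0.06. Over all 737 tested members with a tested neighbour, 57.3% of neighbours had a positive log2 change and 42.7% a negative one, and 60.1% had the sign of their member. The share of these neighbours that edgeR called is not given here, and of all rows tested in lung 3.14% rose and 2.72% fell. Across members, Spearman's rho between the member's log2 change and its neighbour's at heat in lung was 0.48 over 38 pairs downstream on the same strand, 0.42 over 285 pairs within a gene, 0.29 over 294 pairs with shared exonic bases and 0.13 over 83 pairs upstream on the opposite strand. Pearson's r was 0.40, 0.52, 0.34 and 0.68 in the same order. The order differed between tissues. In muscle rho was 0.18 over 30 downstream pairs and 0.38 over 201 pairs within a gene. It was 0.54 over 250 muscle pairs with shared bases and 0.37 over 69 upstream pairs. Pearson's r in muscle was 0.28, 0.41, 0.58 and 0.53 in that order. In blood rho was 0.64 over 32 downstream pairs, and 0.25, 0.28 and 0.26 in the other classes in that order. These are descriptions across genes: both values of a pair come from the same libraries, and pairs with shared bases can share reads. By row order, 12 of the 79 members that rose in lung had an adjacent row that rose (15.2%, against 4.50% of all tested members), and named rows gave 13.9 and 4.10%. The figure for rows that fell was 12.3% against 3.64% for members, and 7.20 against 3.29% for named rows.

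Gm22146, whose sequence is above, was chosen after its values were seen and had the highest log2 change of the called members in lung. It lies within Fkbp5, on the opposite strand, and shares no exonic base with it. Fkbp5 encodes a co-chaperone of the glucocorticoid receptor and is switched on by glucocorticoids. Gm22146 had 1 read in the 3 lung control libraries together and levels of 0.716, 1.82 and 0.769 CPM at heat, a ratio of 72.3 with an exact 95% counting interval of 12.6 to 2898 (edgeR adjusted p = 0.00886). Recovery libraries held 0, 0 and 0.0983 CPM. The member thus passed the filter on low counts only through the heat libraries, where it is high, and its place among the called members is not independent of that. Fkbp5 itself was at 19.8, 18 and 19.6 CPM in control, against 79.1, 75.5 and 84.3 CPM at heat (log2 2.06, SE 0.19, edgeR adjusted p = 0.00123). As the strand setting of the counting is not stated, reads of unspliced Fkbp5 RNA cannot be told apart from those of Gm22146. In muscle Gm22146 was under the filter, and in blood its 2 heat libraries (0.364 and 0.286 CPM) lay above both control libraries without passing (edgeR adjusted p = 0.276).

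Gm10069, Gm15270 and Gm15889 were also picked after their values were seen, for lying near stress-responsive genes. Gm10069 starts 80 bases from Fkbp4, a co-chaperone of HSP90, on the opposite strand, and rose in lung from 2.36 ± 1.10 (SD, n = 3) to 9.19 ± 3.09 CPM (SD, n = 3), by a log2 change of 1.97 (SE 0.34, edgeR adjusted p = 0.0107), beside 1.23 for Fkbp4 (adjusted p = 0.00984). It also overlaps Pzp, on the opposite strand, with 303 of its 4370 exonic bases shared, and Pzp had a log2 change of -0.80 in lung and did not pass (edgeR adjusted p = 0.764). Gm15270, opposite to Ccn2, the gene of a matrix growth factor, rose by 1.24 (edgeR adjusted p = 0.00799), beside 1.19 for Ccn2, with 665 of its 2053 exonic bases shared. As the strand setting of the counting is not stated, reads of these overlapping pairs cannot be told apart. Gm15889, 6.12 kb before Herpud1, a gene of the endoplasmic reticulum stress response, rose by 1.25 (edgeR adjusted p = 0.0133), beside 0.74 for Herpud1. All 3 are long non-coding RNAs. Gm10069 did not pass in muscle or blood (log2 2.56 and 3.00, edgeR adjusted p = 0.101 and 0.135), Gm15270 did not pass in muscle, and the others were under the filter there.

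**Figure D4:**
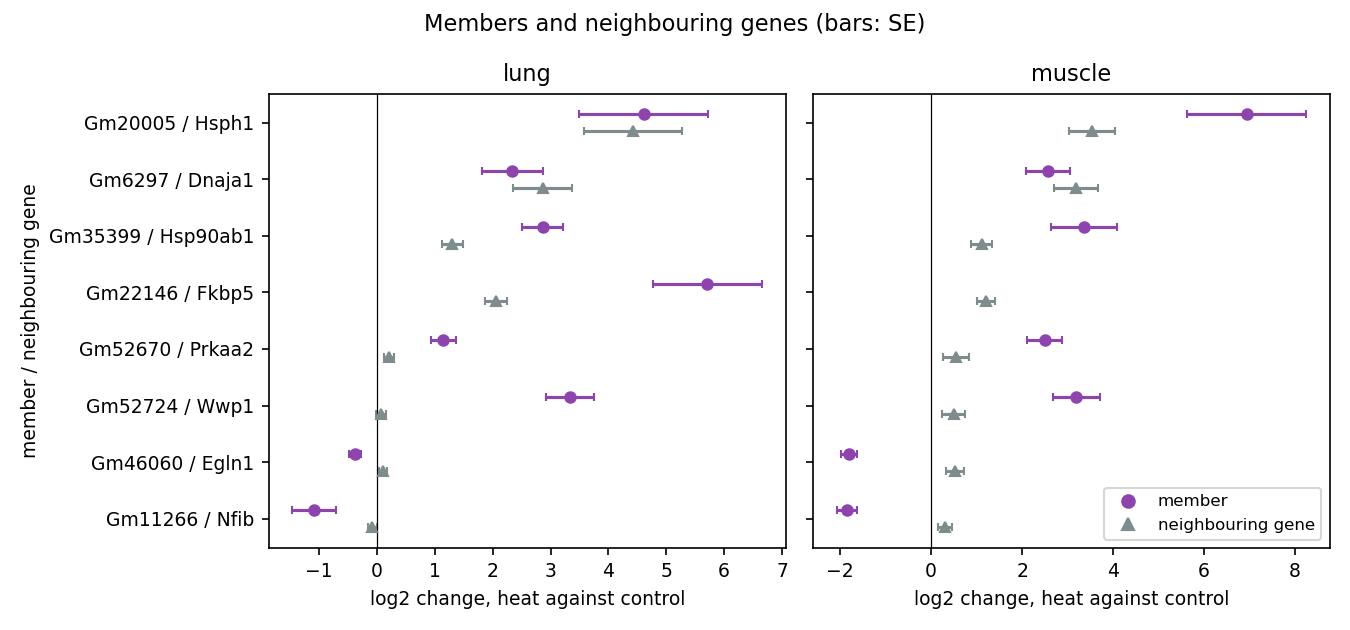
Log2 change at heat with its SE (bars) in lung and muscle for 8 members (circles) and the gene next to or around each (triangles), from edgeR. Member and neighbour are both to the right of 0 for the chaperone genes, as for Gm6297 and Dnaja1 in lung (2.34 and 2.86), while Gm46060 and Gm11266 lie to the left of 0 and Egln1 to the right of it. Gm22146 was not tested in muscle and has no circle there.

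Among the members that fell in lung was Gm30211, printed above. It is at the kappa light chain locus, which is read in B cells and plasma cells, and shares no exonic base with Igkc. Its level was 4.15, 4.08 and 4.08 CPM in control, 0.926, 0.979 and 0.385 CPM at heat and 4.48, 3.92 and 1.33 CPM at recovery (heat log2 -2.38, SE 0.44, edgeR adjusted p = 0.014). The call was lost without control library 1, control library 3 or heat library 1 (edgeR adjusted p up to 0.0603). In blood it was 17.4 and 14.9 CPM in control, against 5.79 and 8.90 CPM at heat, without overlap and without passing (log2 -1.13, edgeR adjusted p = 0.129). Over the 10 B cell markers listed, the summed level in lung was 327 to 346 CPM in control, against 178 to 185 CPM at heat, 6 of 10 fell, none rose, and none was at 0. The summed level of 12 T and NK cell markers was 63.1 to 73.6 CPM in control, against 41.4 to 47.9 CPM at heat. The part of these cells in the members' decrease was not tested, and in bulk RNA fewer cells of a type and less RNA per cell cannot be told apart.

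The member with the largest decrease in lung was Gm30188, at 2.55, 1.12 and 1.82 CPM in control, 0.210, 0.466 and 0.128 CPM at heat and 3.15, 2.85 and 4.18 CPM at recovery. Its edgeR log2 change at heat was -2.70 (SE 0.45, adjusted p = 0.00953), and it kept its call under each alternative that tested it, with a log2 change of -3.34 without heat library 2. At recovery all 3 libraries were above the control libraries, without passing (log2 0.88, edgeR adjusted p = 0.639). Gm5464, which starts 0.162 kb from Dpysl2 on the opposite strand, was at 2.13, 1.90 and 1.79 CPM in control, against 0.674, 0.559 and 0.577 CPM at heat (log2 -1.67, edgeR adjusted p = 0.0108), while Dpysl2 had a log2 change of -0.00. Gm34686, Gm30455, Gm39572, Gm41696, Gm33636, Gm41247 and Gm46274 fell by 1.54 to 2.07 on the log2 scale (edgeR adjusted p = 0.0143 to 0.0226). Each of these 7 lost its call without control library 3 and without heat library 1, all but Gm30455 also without control library 1, and Gm41247 also without control library 2. Of these, Gm41696 also stood lower in all heat libraries of muscle and blood, with log2 changes of -2.80 and -3.01 that did not pass.

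In muscle at heat, 5 of 2002 tested members rose (0.25%) and 8 fell (0.40%), against 0.293 and 0.135% of all 17746 rows tested, and 41 (0.28%) and 12 (0.083%) of 14436 named rows. Over all levels together, the members' median log2 change was -0.12, against -0.03 for named rows. At like levels the order was mostly the other way. Under 1 CPM the medians were -0.27 for members and -0.61 for named rows, and from 1 to 5 CPM -0.02 and -0.43. From 5 to 20 CPM they were 0.11 and -0.09, and at 20 CPM or more 0.07 and 0.21. These differences were not tested. The spread between libraries was larger than in lung, with a common coefficient of biological variation of 0.338 in muscle and 0.161 in lung. These counts hang on single libraries, and the shares of all rows in the following fits are not given here. Without recovery library 1 there were 82 that rose and 192 that fell. None rose without control library 1, control library 2, heat library 1 or heat library 3, where 0, 0, 0 and 1 fell. Without control library 3 the counts were 9 and 30, without heat library 2 it was 13 that rose, without recovery library 2 it was 3 that rose, and without recovery library 3 they were 3 and 5. DESeq2 called 102 and 165 on the same counts, and the replicate number as a block left none.

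Besides Gm52724 and Gm52670, members that rose in muscle included Gm40564 and Gm15934. Gm40564, between Atp2c1 and Pik3r4, was at 0.188, 0.168 and 0.341 CPM in control, 2.60, 1.89 and 4.50 CPM at heat and 0.324, 0.310 and 0.179 CPM at recovery (log2 3.68, SE 0.48, edgeR adjusted p = 0.027). Gm40564 thus passed the filter on low counts only through the heat libraries, where it is high. Its place among the called members is not independent of that. Gm15934 lies within Popdc3, a membrane protein gene of striated muscle, on the opposite strand, with 120 of its 525 exonic bases shared. It was at 0.532, 0.503 and 0.681 CPM in control, 5.20, 2.90 and 9.06 CPM at heat and 1.12, 2.79 and 3.28 CPM at recovery (heat log2 3.32, SE 0.53, edgeR adjusted p = 0.0485), so recovery libraries lay above control and overlapped heat. Popdc3 had a log2 change of 0.98 at heat and did not pass (edgeR adjusted p = 0.0851).

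Of the members that fell in muscle, Gm46060 and Gm46274 also fell in lung. Gm46060, in the row after Egln1, the oxygen-sensing prolyl hydroxylase, was at 23.0, 24.9 and 27.6 CPM in muscle control, 6.02, 9.33 and 6.31 CPM at heat and 27.5, 29.2 and 25.8 CPM at recovery. In lung it was at 38.7, 37.3 and 36.3 CPM in control, 25.4, 31.5 and 29.5 CPM at heat and 40.6, 35.3 and 36.6 CPM at recovery. Heat libraries lay below all others in both tissues, and the decrease was larger in muscle (edgeR log2 -1.80, SE 0.18, adjusted p = 0.0178) than in lung (-0.38, SE 0.10, adjusted p = 0.0442). The lung call was lost in 10 of 15 alternatives: with no filter, only the groups compared or the replicate number as a block, and without any 1 of the control or recovery libraries or heat library 1 (edgeR adjusted p up to 0.142). The muscle call was lost in 4 of 15: with the block, and without control library 1, control library 2 or heat library 1 (edgeR adjusted p up to 0.151). In a joint fit of all 24 libraries the muscle change minus the lung change was -1.40 (edgeR adjusted p = 0.0111), the only member of 3888 tested for which this difference passed, against 0.0221% of 22592 rows higher and 0.0221% lower. In blood it was at 8.40 and 8.44 CPM in control, against 7.61 and 8.75 CPM at heat, which overlap. Egln1 had log2 changes of 0.52 in muscle and 0.10 in lung and passed in neither.

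Gm46274 was at 1.53, 1.51 and 1.02 CPM in muscle control, against 0.165, 0.149 and 0.259 CPM at heat, a log2 change of -2.80 (SE 0.39, edgeR adjusted p = 0.031). In lung its level went from 4.84, 3.69 and 4.86 CPM to 1.56, 2.14 and 0.833 CPM (log2 -1.54, edgeR adjusted p = 0.0159). Gm46550, between Adcy5 and Sec22a, was at 3.10, 4.05 and 1.77 CPM in muscle control, 0.428, 0.446 and 0.486 CPM at heat and 0.826, 0.387 and 0.656 CPM at recovery (heat log2 -2.70, edgeR adjusted p = 0.0405). Heat and recovery libraries overlapped and both lay below control, and only the heat change passed (recovery log2 -2.24, edgeR adjusted p = 0.173), and in lung it was even across groups (1.73 to 2.57 CPM in all 9 libraries). Gm11266, within Nfib on the opposite strand and sharing no exonic base with it, was at 4.60, 4.05 and 4.56 CPM in muscle control, 1.38, 1.23 and 1.04 CPM at heat and 4.63, 4.68 and 3.28 CPM at recovery (heat log2 -1.85, edgeR adjusted p = 0.027). Gm35566, Gm32584 and Gm36375 fell in muscle by 1.73, 1.07 and 0.86 on the log2 scale (edgeR adjusted p = 0.0485, 0.043 and 0.027), and the remaining member that fell was Gm38500.

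**Figure D5:**
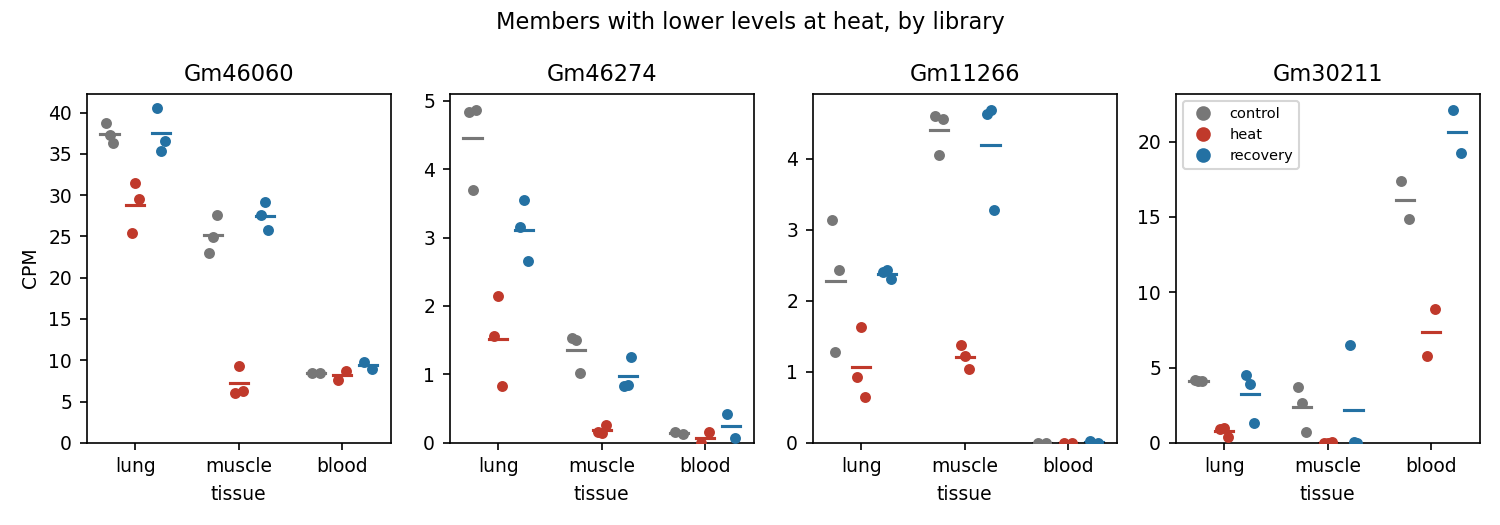
Level in CPM of Gm46060, Gm46274, Gm11266 and Gm30211, one point per library with the mean as a line, by tissue and condition. Gm46060 falls from 23.0 to 27.6 CPM in muscle control to 6.02 to 9.33 CPM at heat and lies at 25.8 to 29.2 CPM at recovery, with a smaller step in lung and overlap in blood.

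Marker sums of other cell types varied between muscle libraries. That of 12 T and NK cell markers was 14.6 to 58.7 CPM in control, against 0.165 to 2.98 CPM at heat, without overlap, and 0.581 to 78.8 CPM at recovery, with a median of 1.40 CPM. That of 5 adipocyte markers was 277 to 1371 CPM in control, against 49.4 to 325 CPM at heat, which overlap, and 263 to 958 CPM at recovery. That of 10 B cell markers was 98.8 to 321 CPM in control, against 55.1 to 121 CPM at heat, which overlap, and 33.9 to 477 CPM at recovery. Of the tested markers of these lists none passed the edgeR test. Gm30211 in muscle was at 3.69, 2.65 and 0.715 CPM in control, 0, 0 and 0.0324 CPM at heat and 6.49, 0.0387 and 0 CPM at recovery. Gm9861 was at 7.35, 5.87 and 1.80 CPM in muscle control, 0.0329, 0.409 and 0.227 CPM at heat and 13.4, 0.194 and 0.179 CPM at recovery. In both, recovery library 1 was the highest of all muscle libraries. Neither passed in muscle, and the part of other cells in the muscle results was not tested. In lung both fell, Gm9861 by a log2 change of -0.89 (edgeR adjusted p = 0.0428).

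In blood no member was called at heat by edgeR, as was no row of the whole table (0% in each direction), while DESeq2 called 26 that rose and 19 that fell. The share of all rows that DESeq2 called is not given here. Much of the depth in blood went to red cell genes, and unevenly. The summed level of 7 erythroid markers was 398837 to 570888 CPM in control and 368743 to 902978 CPM in the 2 heat libraries. At recovery it was 768354 to 914035 CPM. The part of this in the lack of calls was not tested. At an unadjusted p under 0.05, 116 members were higher and 134 lower of 1806 tested, beside 1187 and 1168 of all 15869 rows. The members with the smallest p of at least 1 CPM were Gm34442, Gm15411, Gm9861, Gm32908 and Gm31493, given as not called. Gm34442, after Dok2, was at 0.312 and 0.342 CPM in control, 3.47 and 2.26 CPM at heat and 0.352 and 0.218 CPM at recovery (log2 3.12, SE 0.39, edgeR adjusted p = 0.0816). In lung its heat libraries (0.758, 0.606 and 1.99 CPM) also lay above control (0.266 to 0.358 CPM), without passing. Gm32908, in the row before the neutrophil receptor gene Csf3r, was at 3.48 and 4.46 CPM in control, against 11.1 and 8.86 CPM at heat (log2 1.32, edgeR adjusted p = 0.101). The summed level of 11 neutrophil markers in blood was 426 to 471 CPM in control, against 746 to 917 CPM at heat, and its part in these values was not tested. Gm15411, Gm9861 and Gm31493 were lower at heat, with log2 changes of -1.46, -1.19 and -1.26 (edgeR adjusted p = 0.0927 to 0.101), and B cell markers summed to 990 to 1199 CPM in control, against 744 to 837 CPM at heat.

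Without heat library 2 of blood, the heat group is 1 library, assumed to vary like the other groups, so calls then have no replicate check at heat. The joint fit found no member whose blood change differed from its lung change at heat by edgeR (0 of 3888 tested, against 0.0354% of all rows higher and 0.0221% lower).

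At recovery, no member was called in any tissue by edgeR. Recovery was compared with the same control libraries as heat, so the 2 comparisons are not independent. Over all rows edgeR called 0.0206% higher and 0.0103% lower in lung. At an unadjusted p under 0.05, 82 of 2667 members were higher and 53 lower there, beside 706 and 682 of all 19438 rows, and DESeq2 called 4 and 4 members. Without heat library 3, 3 rose. In muscle edgeR called 0.0676% of all rows higher and 0% lower. The unadjusted numbers were 41 and 52 of 2002 members, beside 596 and 283 of all 17746 rows. DESeq2 called 8 and 3 members, and without recovery library 1 the numbers called by edgeR were 1 and 2. In blood edgeR called 0% of rows in either direction. The unadjusted numbers were 60 and 88 of 1806 members, beside 773 and 644 of all 15869 rows, and DESeq2 called 0 and 2 members. Shares of all rows under DESeq2 or with a library left out are not given here. The median log2 change of members was 0.04 in lung, -0.04 in muscle and -0.05 in blood, and for named rows -0.00, 0.01 and -0.02. Of the 4 members called in both lung and muscle at heat, 3 had recovery libraries that overlapped control in both tissues. The exception was Gm46274, whose lung recovery libraries (3.15, 3.55 and 2.65 CPM) were all under control.

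The members nearest to a call at recovery differed from those at heat. In lung Gm15521, within Ntm on the same strand, was at 5.15, 6.71 and 5.79 CPM in control, 5.52, 5.78 and 5.64 CPM at heat and 11.8, 9.20 and 12.6 CPM at recovery (recovery log2 0.93, edgeR adjusted p = 0.121). Gm40909, before Pxdc1, was at 3.83, 2.79 and 2.97 CPM in control, 2.19, 2.28 and 1.15 CPM at heat and 6.05, 7.47 and 9.97 CPM at recovery, with the heat group lowest and the recovery group highest (recovery log2 1.29, edgeR adjusted p = 0.181). Gm5859 and Gm51887 had recovery log2 changes of 0.74 and 0.85, and Gm31320, in the row after the mast cell protease gene Cpa3, one of -1.16 (edgeR adjusted p = 0.152 to 0.189). In muscle Gm4861, in the row before Ddit4l, was at 11, 16.6 and 16.3 CPM in control, 15.5, 9.47 and 21.2 CPM at heat and 4.36, 5.50 and 5.90 CPM at recovery (recovery log2 -1.48, edgeR adjusted p = 0.254). Gm38927, before the clock repressor gene Bhlhe41, was at 2.44, 1.59 and 2.59 CPM in control, against 4.39, 5.38 and 6.05 CPM at recovery (log2 1.26, edgeR adjusted p = 0.409). Gm46550, Gm31262 and Gm41608 had log2 changes of -2.24, -0.87 and -1.07 (edgeR adjusted p = 0.173 to 0.435).

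In blood at recovery the smallest p belonged to Gm39538, in the row before Tsc22d3, a glucocorticoid-induced leucine zipper gene. It was at 1.66 and 1.86 CPM in control, 4.24 and 4.90 CPM at heat and 0.352 and 0.435 CPM at recovery, in 3 ranges that do not overlap (log2 1.37 at heat and -2.17 at recovery, edgeR adjusted p = 0.107 and 0.544). Tsc22d3 was at 97.4 and 115 CPM in control, 224 and 237 CPM at heat and 78.1 and 90.7 CPM at recovery, in the same order. Gm51701, before the chemokine receptor gene Ccr1, was at 2.16 and 2.07 CPM in control, 4.63 and 4.31 CPM at heat and 0.981 and 1.09 CPM at recovery. Gm24265 was lower at recovery (log2 -1.96), and Gm35545 and Gm11690 were higher (0.61 and 0.61), each with an edgeR adjusted p of 0.544. Gm35545 lies among the lambda light chain segments, and B cell markers summed to 1234 to 1298 CPM at recovery.

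The 5 members with the most reads (highest mean CPM, not corrected for length) in each tissue were also described. In lung Gm50599 led at 354 ± 41.1 CPM (SD, n = 3) in control and 328 ± 58.7 CPM (SD, n = 3) at heat, followed by Gm52128, Gm38865, Gm4258 and Gm38485, and none of these passed. Gm4258, which overlaps the microRNAs Mir181a-1 and Mir181b-1, was at 275, 216 and 268 CPM in lung control, against 188, 225 and 99.4 CPM at heat, which overlap. Gm38485, after the stress-responsive transcription factor gene Foxo3, was at 210 ± 54.4 CPM in control (SD, n = 3), 319 ± 23.1 CPM at heat (SD, n = 3) and 152 ± 13.8 CPM at recovery (SD, n = 3), without overlap between heat and control (log2 0.60, edgeR adjusted p = 0.063). Foxo3 rose in lung by 0.85 (edgeR adjusted p = 0.00799). In muscle the leading members were Gm26740, Gm41607, Gm26604, Gm38865 and Gm34595, and in blood Gm38865, Gm8995, Gm16867, Gm26740 and Gm40309, and none passed at heat or recovery in the tissue it led. Gm26740 fell in lung (log2 -0.98, edgeR adjusted p = 0.0391). Gm8995 is a pseudogene whose transcript nearly matches another row's, so its level of 252 ± 57.1 CPM in blood control (SD, n = 2) is uncertain. Gm26604 shares 864 of its 3619 exonic bases with Ryr1, and Gm16867 shares 2110 of its 7788 with Entpd4, both on the opposite strand. As the strand setting of the counting is not stated, the levels of both members are uncertain too. Gm40309, within Ube2k on the same strand, rose in lung from 204, 187 and 192 CPM to 252, 232 and 271 CPM (log2 0.37, SE 0.07, edgeR adjusted p = 0.0172), the smallest rise among the 79 members. Ube2k had a log2 change of 0.13 there and did not pass (edgeR adjusted p = 0.40). Reads of unspliced Ube2k RNA cannot be told apart from those of Gm40309.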

How the data were processed

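Total RNA of each mouse sample came from a TRIzol extraction, and libraries from the NEBNext Ultra Directional kit, which keeps the strand, per the labels' protocols. The authors used STAR 2.7 and featureCounts with GRCm39, per the submitters' processing notes, and deposited raw counts per gene, 1 column per library. The counting's strand and multi-mapping settings, and the featureCounts version, are not given in the sources used here. The members and gene lists were chosen with earlier results of these data known.

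Counts were fitted per tissue with edgeR 4.0.16 (R 4.3.3, TMM factors, filterByExpr with a minimum count of 10 and total of 15, robust quasi-likelihood), with control, heat and recovery in one fit and Benjamini-Hochberg adjustment over all rows tested. A joint fit of the 24 libraries tested whether heat changes differed between tissues. The scripts were tested on simulated data. Depth was 17.1 M to 54.5 M counts per library (M, 1000000 counts).

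Named members are the up to 10 called members that rose most and the up to 10 that fell most, among those averaging 1 CPM or more whose groups did not overlap. Where fewer than 5 were called, the 5 with the smallest p are added as not called. Members called in 2 tissues and the 5 with the highest mean per tissue are also named, and others are said to be chosen after their values were seen. 1 member that rose in muscle is not reported here. Rows with ordinary symbols exclude RIKEN, LOC and clone names. Gene types and neighbours came from GENCODE M21. The use of row order for members without a match was chosen after seeing the data. Ratios with 1 to 3 counts in a group carry exact 95% counting intervals, which cover counting error only. Alternatives were DESeq2 1.42.0, RLE factors, no filter, only the groups compared, a member threshold of 500 counts, a replicate block, and each library left out.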

Additional observations from a re-analysis of the deposited data

Results flagged for a closer look

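Gm46060, in the row after Egln1, is listed because its heat response differed between 2 tissues by a test of the difference itself. The muscle change minus the lung change was -1.40 on the log2 scale in the joint edgeR fit (adjusted p = 0.0111). Heat libraries were lower than every control library in 3 of 3 libraries of both tissues. The change in lung alone lost its call in 10 of 15 alternatives (edgeR adjusted p up to 0.142) and that in muscle in 4 of 15 (edgeR adjusted p up to 0.151). With RLE factors the difference was -1.35 (edgeR adjusted p = 0.0274), and with no filter it was -1.41 (edgeR adjusted p = 0.0133).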

How the results depend on the processing

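Counts of called members depended on the settings, and no named result changed sign. The shares of all rows called in these settings are not given here, so the counts do not compare members with other rows. In lung at heat, DESeq2 called 159 that rose and 132 that fell, a fit of only the 2 groups 27 and 16, and leaving out 1 library gave 7 to 153 and 5 to 137. In muscle at heat DESeq2 called 102 and 165, no filter 17 and 31, only the 2 groups 29 and 84, and leaving out 1 library 0 to 82 and 0 to 192. In blood at heat DESeq2 called 26 and 19, no filter 25 and 16, and leaving out 1 library 0 to 32 and 0 to 20. At recovery in lung DESeq2 called 4 and 4, no filter and only the 2 groups 2 each that rose, and leaving out 1 library 0 to 3. At recovery in muscle DESeq2 called 8 and 3, and leaving out 1 library 0 to 1 and 0 to 2. At recovery in blood DESeq2 called 2 that fell and no filter 1. The cause of these differences was not tested.

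With the replicate block, 45 rose and 48 fell in lung at heat and 0 and 0 in muscle at heat. Libraries with the same number did not deviate together throughout: their correlations ran from -0.28 to 0.29 in lung and from -0.43 to 0.70 in muscle, so the numbers were not taken to pair samples. In blood no paired analysis was possible because control shares only 1 number with heat and 1 with recovery, so a blocked change would rest on 1 pair of libraries. Of 500 alternative values for the 34 named results that were called, 329 kept the call and 171 did not pass. With DESeq2 and with RLE factors 34 of 34 kept it, with the block 16, and without control library 1 of the tissue 5. Of 257 values for the 20 results not called, 33 passed.

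Members of low level limit these results: the median tested member had 1.30 CPM in lung, 0.803 in muscle and 0.633 in blood, and blood had 2 libraries a group.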
